A study of Mus musculus with 1012 samples.

Results

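Immortalized brown preadipocytes (IBA cells) that had undergone Live-seq, a biopsy that draws cytoplasm from a living cell through a hollow cantilever, were lysed whole and sequenced 4 h later. Members were taken by their sample labels: 43 cells of batch 8_1 collected 4 h after sampling, out of 1012 libraries in the series. They were set against 70 cells of the same batch that were never sampled, and beside 49 cells collected 1 h after sampling. The labels name the unsampled cells 0 h, and the study's methods say that cells without extraction were collected along with the sampled ones. All 3 groups were the same line, grown in high-glucose DMEM with fetal bovine serum and penicillin/streptomycin. The line was made from stromal vascular cells taken from the interscapular brown fat of young male C57BL6/J mice, so it models cycling fat precursors and not mature brown adipocytes. The methods state that cells were moved to a CO2-independent medium shortly before extraction, and do not say whether the unsampled cells were. Sampled cells stood in a micro-insert dish and were all extracted within about an hour. Their cytoplasm was discarded, and single cells were later picked by serial dilution and processed much as in Smart-seq2. The times of 1 h and 4 h are counted from the middle of that hour. No label says which cells shared a dish, so each group counts as 1 sample, cells are not replicates, and no test between groups could be made. Sampling and any difference between dishes cannot be told apart.

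The markers given for these cells belong to pathways with well-known roles. AHR, the aryl hydrocarbon receptor, is a ligand-activated transcription factor whose targets include Tiparp, a mono-ADP-ribosyltransferase that feeds back on AHR, and the Cyp1 family of oxidases. NRF2 is released from KEAP1 under oxidative or electrophilic stress and drives Nqo1, a quinone reductase, Gsta4, a glutathione transferase that clears the lipid peroxidation product 4-hydroxynonenal, and Hmox1, which degrades haem. Nqo1 is a target of both factors. Hbp1 is an HMG-box repressor that slows entry into S phase and is itself a FOXO target. Growth factors and tension act through serum response factor (SRF) and YAP, which drive Ccn1, and SRF also drives many immediate early genes, while bone morphogenetic proteins (BMPs) drive the Id genes.

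On GRCm38 the marker genes lie at chr3:65528410-65555518 on the plus strand (Tiparp), chr8:107388225-107403206 on the minus strand (Nqo1), chr9:78182774-78209349 on the plus strand (Gsta4) and chr12:31926254-31950535 on the minus strand (Hbp1). AHR binds sites with the core GCGTG and NRF2 binds antioxidant response elements with the core TGACNNNGC, so 2 start regions are shown for the genes that lead the higher set. Each runs from 250 bases before to 50 bases after the RefSeq start on GRCm38.p6, 5′ to 3′ along the gene, with matches on either strand in capitals. The Tiparp region lies on the plus strand at chr3:65528197-65528496 and the Nqo1 region on the minus strand at chr8:107403156-107403455.
Tiparp: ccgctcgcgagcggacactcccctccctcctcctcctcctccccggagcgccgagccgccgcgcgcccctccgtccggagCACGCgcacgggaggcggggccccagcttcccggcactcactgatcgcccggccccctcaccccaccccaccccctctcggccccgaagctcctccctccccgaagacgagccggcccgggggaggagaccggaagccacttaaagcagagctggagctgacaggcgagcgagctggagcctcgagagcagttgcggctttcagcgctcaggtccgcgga
Nqo1: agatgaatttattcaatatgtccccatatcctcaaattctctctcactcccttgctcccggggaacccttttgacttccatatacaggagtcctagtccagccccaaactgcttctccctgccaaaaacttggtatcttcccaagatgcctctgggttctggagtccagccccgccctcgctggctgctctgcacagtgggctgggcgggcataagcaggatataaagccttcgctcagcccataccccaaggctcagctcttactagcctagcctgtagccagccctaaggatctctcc
Tiparp held 1 AHR core on the opposite strand, printed above as CACGC with its first base at -170, and no antioxidant response element. Nqo1 held neither in this window. The AHR core occurs in 32.4% and the antioxidant response element in 12.4% of the 32851 start regions of the same length. Hbp1 held neither, and Gsta4 and Hmox1 had no entry. Of the 15 genes with the highest 4 h ratios named below, 11 had an entry, 7 of these held the AHR core and 3 the antioxidant response element. Of the 15 with the lowest ratios, 6 had an entry, 4 held the AHR core and 2 the antioxidant response element. These matches are letters in a window and not binding sites.

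Depth was similar in the 3 groups, with median total counts of 492551 per cell at 4 h (80306 to 968215), 581052 at 1 h and 462758 in control cells (38451 to 891327). No library was identical to another. In each group the libraries fell into a class with a low and a class with a high share of mitochondrially encoded transcripts, divided at 6% of counts after the data were seen. The low class held 17 of 43 cells at 4 h (39.5%, exact 95% interval 24.98 to 55.6%), 12 of 49 at 1 h and 38 of 70 in controls (54.3%, 41.9 to 66.3%). Low-class libraries were also poorer, with a median of 6988 against 8598 detected genes at 4 h and 7035 against 9236 in controls. The labels give no reason for the classes. Because their mix differed between the groups, ratios within each class are given below beside those of the genes described in most detail.

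**Figure D1:**
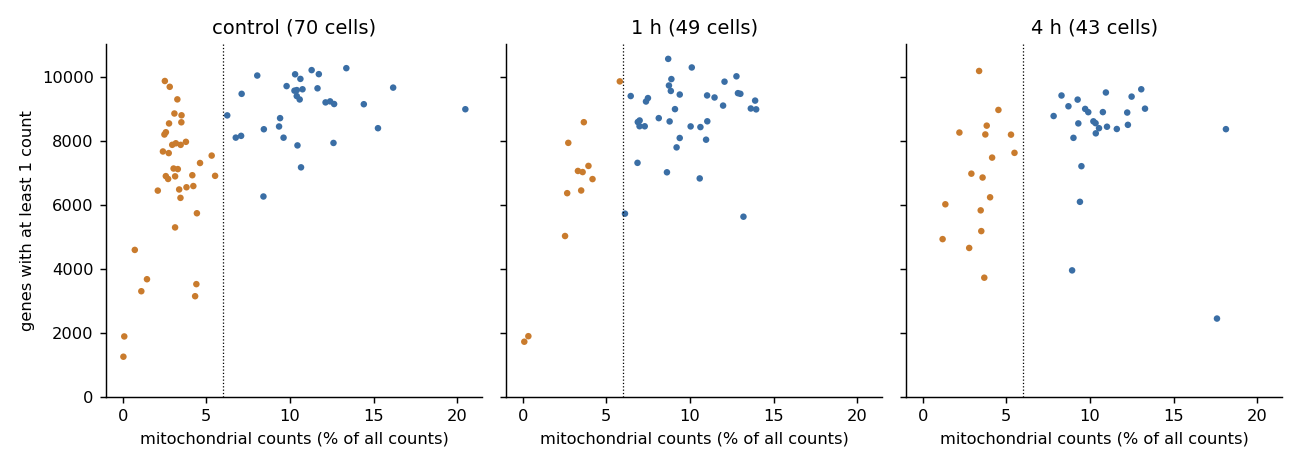
Genes with at least 1 count against the share of mitochondrially encoded counts (% of all counts) for each cell of batch 8_1, in 1 panel per group; the dotted line marks the 6% split. Both classes occur in every group, and 17 of 43 cells at 4 h lie left of the line against 38 of 70 control cells.

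Levels are CPM, the raw counts summed over a group and scaled to a common total, after removal of 20 genes found in negative controls and 91 genes of ribosomal proteins. A gene was compared if the 4 h or control sum reached 20 CPM and if 15% or more of the cells in either group held 2 or more counts. Of 7188 such genes, 6.3% were at least 1.5-fold higher and 11.4% at least 1.5-fold lower at 4 h than in control cells. At 2-fold the shares were 1.93% and 3.58%. The median gene differed by -0.04 on the log2 scale. Within both library classes 3.1% were at least 1.5-fold higher and 5.13% at least 1.5-fold lower. Higher genes made up 35.5% of all genes past 1.5-fold, and 46.2% with DESeq2 size factors in place of total counts, so the balance of both directions depends on the scaling.

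Most late changes had not passed the same limit at 1 h. Of the genes at least 1.5-fold higher at 4 h, 37.1% were already that much higher at 1 h, 61.4% lay within 1.5-fold and 7 genes were at least 1.5-fold lower. Of those lower at 4 h, 39.6% were already at least 1.5-fold lower at 1 h, 59.4% lay within 1.5-fold and 8 genes were higher. At 2-fold, 30.9% of the higher and 20.2% of the lower genes were already past that limit at 1 h. Over all genes compared at 1 h, 5.91% were at least 1.5-fold higher and 11.6% at least 1.5-fold lower, and at 2-fold 1.63% and 2.77%. Both times were divided by the same control cells, so chance in those cells enters both ratios and the shared counts carry no independent weight.

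Tiparp had the highest 4 h ratio of the genes taken by the size rule below. Its summed level was 49.6 CPM in control cells (95% counting interval 46.8 to 52.5), 272.2 CPM at 1 h and 244.1 CPM at 4 h (236.4 to 251.9), a 4.92-fold ratio at 4 h and 5.49-fold at 1 h. Single cells at 4 h ranged from 0 to 1136 CPM with a median of 132.7 CPM, against 0 to 254.4 CPM and a median of 15.8 CPM in control cells. Ranges overlapped, yet 28 of 43 cells at 4 h lay above the upper quartile of the control cells and 38 above their median. After each cell was thinned to 50000 counts, Tiparp was seen in 93.02% of cells at 4 h (exact 95% interval 80.9 to 98.5%) and 54.4% of control cells (41.9 to 66.5%). Without thinning, 41 of 43 and 49 of 70 cells had a count. Within the low and the high class the log2 ratios were 2.57 and 2.14. The 1.5-fold difference in Tiparp at 4 h was thus already present at 1 h.

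Other members of the AHR list were sparse. Cyp1b1 stood at 77.3 CPM in controls and 112.2 CPM at 4 h, a 1.45-fold ratio, and Arnt, the DNA-binding partner of AHR, at 49.8 and 44.4 CPM. With Tiparp and Nqo1, 2 of the 4 list members that passed the filter on low values were past 1.5-fold higher (of 9 measured). Both are given markers, so this count carries no independent weight. Cyp1a1, picked after its values were seen, failed that filter. It had no count in 70 control cells, which allows a share of up to 5.13% by the exact interval, and none in 3 other sets of unsampled IBA cells. At 1 h it was at 22.5 CPM, from 5 of 49 cells, and at 4 h at 2.58 CPM, from 41 counts in 2 of 43 cells, with 97.6% of them in 1 cell.

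Of 25 NRF2 targets, which include the markers Nqo1 and Gsta4, 24 passed the filter. At 4 h, 8 of them were at least 1.5-fold higher and none at least 1.5-fold lower, beside 6.3% and 11.4% of all genes. At 1 h, 5 were higher and 2 lower. Their median log2 ratio was 0.43 at 4 h and 0.09 at 1 h, where all genes had -0.04 and -0.08. Within the low and high class the 4 h median was 0.55 and 0.42. The summed level of the list was 13194 CPM in controls, 15397 CPM at 1 h and 19196 CPM at 4 h, and 25 of 43 cells at 4 h were above the upper control quartile. In the 3 other sets of unsampled IBA cells the sum was 5976 to 13055 CPM.

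Nqo1 was present early and stayed high. Its level was 151.6 CPM in controls (146.8 to 156.6), 483.5 CPM at 1 h and 576.2 CPM at 4 h (564.5 to 588.1), which is 3.8-fold at 4 h and 3.19-fold at 1 h. Cells at 4 h ranged from 5.61 to 2717 CPM with a median of 371.7 CPM, and control cells from 0 to 1004.95 CPM with a median of 97.7 CPM. All 43 cells at 4 h held an Nqo1 count, against 62 of 70 control cells, and 29 of the 43 exceeded the upper control quartile. Ratios within the classes were 2.05 and 1.86 on the log2 scale.

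Hmox1 was already past 1.5-fold at 1 h and was higher still at 4 h, whereas Gsta4 was past 1.5-fold at 4 h only. Hmox1 stood at 291.3 CPM in controls (284.5 to 298.1), 479.4 CPM at 1 h and 910.5 CPM at 4 h (895.7 to 925.4), so the ratio went from 1.65-fold to 3.13-fold. Its cell values at 4 h ran from 0 to 3286 CPM around a median of 538.6 CPM, against 0 to 1130 CPM around 190.1 CPM in controls. Within the low and high class it was 3.04-fold and 2.99-fold higher at 4 h. Gsta4 was at 233.7 CPM in controls (227.7 to 239.9), 265.1 CPM at 1 h and 586.4 CPM at 4 h (574.5 to 598.4), a ratio of 1.13-fold at 1 h and 2.51-fold at 4 h. Every one of the 43 cells at 4 h had Gsta4, from 39.9 to 3361 CPM with a median of 339.5 CPM. Among control cells 53 of 70 had it, from 0 to 2186 CPM with a median of 88.998 CPM, and 32 of the 43 cells at 4 h exceeded the upper control quartile. A single cell supplied 24.9% of the Gsta4 counts at 4 h, and without the highest cell of each group the log2 ratio was 1.02 in place of 1.33. Within the classes it was 1.56 and 1.19. After thinning, Gsta4 was in 100% of the cells at 4 h (91.8 to 100%) and 70.6% of control cells (58.3 to 81.02%).

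Slc7a11 (chosen after its values were seen), the cystine transporter that feeds glutathione synthesis, was at 87.3 CPM in controls, 182.2 CPM at 1 h and 215.2 CPM at 4 h, although 1 cell held 29.6% of its counts at 4 h. Osgin1, an oxidative stress-induced growth inhibitor, was at 20.9, 52.1 and 51.7 CPM in the same order, with class ratios of 0.51 and 1.96 on the log2 scale. Among NRF2 targets, Gstp1, Cbr1, Taldo1, Me1 and Tkt, chosen after their values were seen, lay between -0.21 and 0.16 on the log2 scale at 4 h. Tkt was at -0.66 at 1 h.

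**Figure D2:**
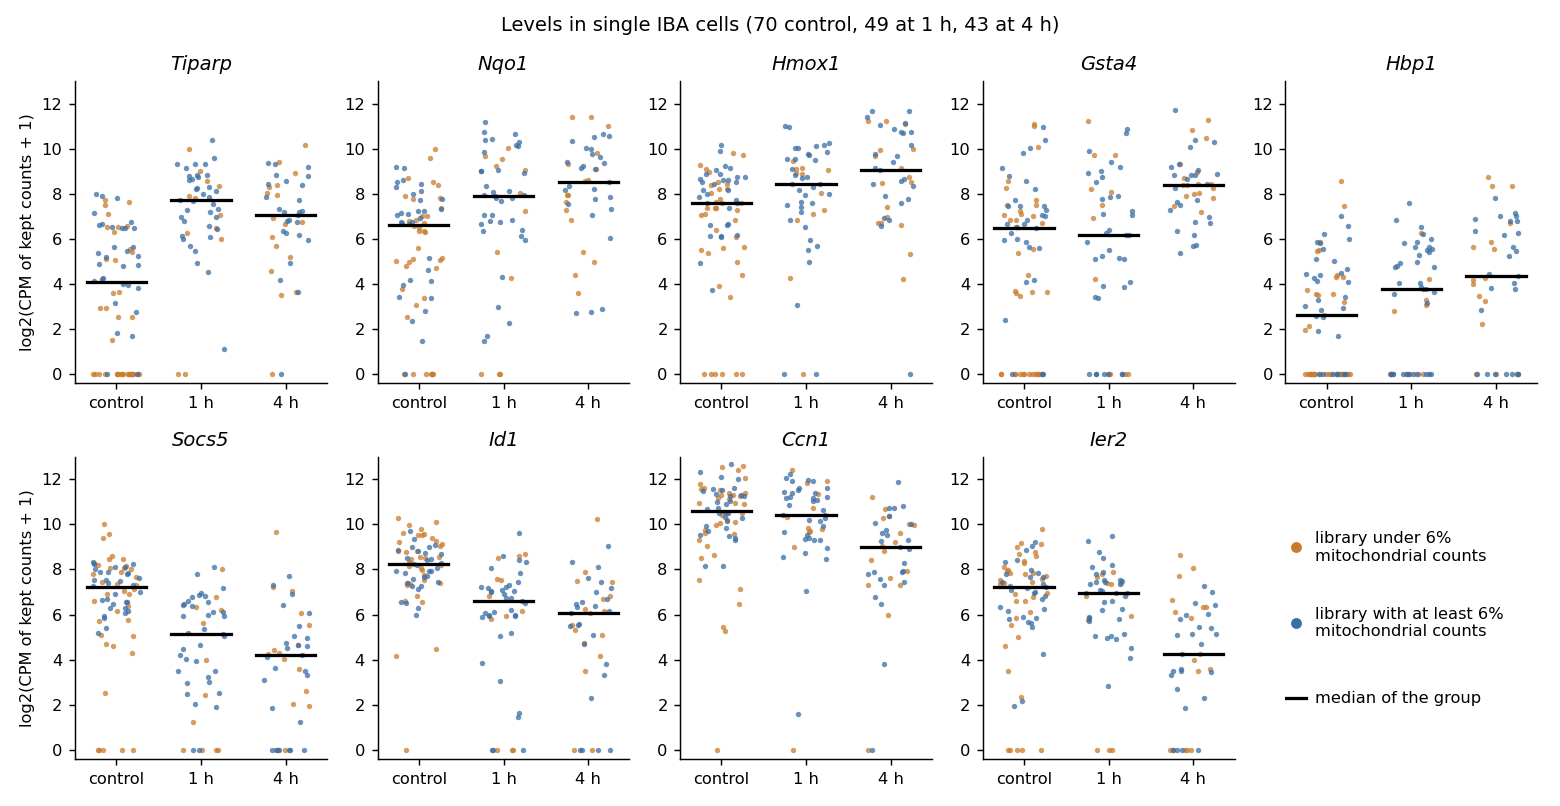
Level of 9 genes in each cell, as log2(CPM of kept counts + 1), for 70 control cells, 49 cells at 1 h and 43 cells at 4 h; bars are group medians and colours are the 2 library classes. Tiparp is high at 1 h and 4 h, Gsta4 is above 0 in all 43 cells at 4 h, and the medians of Ccn1 and Ier2 at 4 h are 510.6 and 18.1 CPM against 1558 and 146.5 CPM in control cells.

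Hbp1, like Gsta4, was past 1.5-fold at 4 h and not at 1 h. It stood at 20.3 CPM in controls (18.6 to 22.2), 27.8 CPM at 1 h and 66.1 CPM at 4 h (62.2 to 70.3), a 1.37-fold ratio at 1 h and 3.25-fold at 4 h. Cells at 4 h ranged from 0 to 421.4 CPM with a median of 19.2 CPM, and control cells from 0 to 375.1 CPM with a median of 5.09 CPM. Of the 43 cells, 32 held a count, and 21 lay above the upper control quartile. The log2 ratio was 2.68 in the low class and 1.25 in the high class. After thinning, 62.8% of cells at 4 h (46.7 to 77.02%) and 33.8% of control cells (22.8 to 46.3%) showed it. Of 20 FOXO targets and brakes on growth, 14 passed the filter. At 4 h, 5 of them were at least 1.5-fold higher and 1 lower, beside 6.3% and 11.4% of all genes. At 1 h, 3 were higher and 1 was lower. Klhl24, a cullin adaptor, was at 6.72, 14.8 and 21.9 CPM in control, 1 h and 4 h cells, and Bcl2l11, which encodes the cell death protein BIM, at 11.8, 18.7 and 26.5 CPM. Cdkn1b, which encodes the CDK inhibitor p27, went the other way, from 26.3 to 14.8 CPM, though with log2 ratios of -0.26 in the low class and -1.13 in the high class. Klhl24, Bcl2l11 and Txnip were already at least 1.5-fold higher at 1 h. Txnip was at 1.66 on the log2 scale at 1 h and at 0.62 at 4 h. The list's median was 0.35 at 4 h and 0.25 at 1 h.

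The 4 markers were counted together in each cell. They were given for these cells, so their high counts carry no independent weight. Whether they met in a cell more often than their single shares would give was not tested. At 4 h, 13 of 43 cells (30.2%) held all 4 above the upper control quartile and 25 (58.1%) held at least 3. At 1 h these numbers were 4 and 17 of 49 cells. Among the control cells, which define the quartiles, they were 1 and 9 of 70. No marker was above its quartile in 5 of 43 cells at 4 h. Across the 43 cells Spearman's rho was 0.46 between Nqo1 and Hmox1, 0.45 between Nqo1 and Gsta4 and 0.36 between Tiparp and Hbp1. Between Tiparp and Nqo1 it was 0.25 and between Hmox1 and Gsta4 0.06. The cells share library class and depth effects, and within the high class (26 cells) the same 5 values were 0.47, 0.60, 0.46, 0.13 and -0.06. Control cells gave 0.43 for Nqo1 with Hmox1 and 0.49 for Nqo1 with Gsta4.

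By the fixed size rule, the 15 genes with the highest 4 h ratios included Tiparp, Nqo1, Hbp1, Nr1d2, Hmox1, Rcan1, Ppp1r15a, Nipal1, Arf2, Zfp9, Haus2, Rel, Plscr1 and Rnf19a. All 15 were past 1.5-fold in both library classes, beside 3.1% of all genes at least 1.5-fold higher in both. The 15 were picked by their ratio in the same cells, so this count carries no independent weight. At 1 h, 11 of the 15 were past 1.5-fold, beside 37.1% of all genes at least 1.5-fold higher at 4 h. Both ratios share the control cells. The genes of the 15 not past 1.5-fold at 1 h included Hbp1, Haus2 and Rel. Rel, an NF-kB subunit, was at 22.9, 31.1 and 63.2 CPM in control, 1 h and 4 h cells, and Haus2, an augmin subunit of the spindle, at 28.03, 40.5 and 77.5 CPM. Among those seen early, Rcan1, a calcineurin inhibitor, was at 31.5, 85.01 and 96.1 CPM, and the REV-ERB beta gene Nr1d2 at 31.2, 92.2 and 99.02 CPM. Plscr1, a phospholipid scramblase, was at 25.9, 78.9 and 70.98 CPM. Nipal1, a magnesium transporter, had a median of 7.67 CPM in control cells and 137.7 CPM at 4 h.

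**Figure D3:**
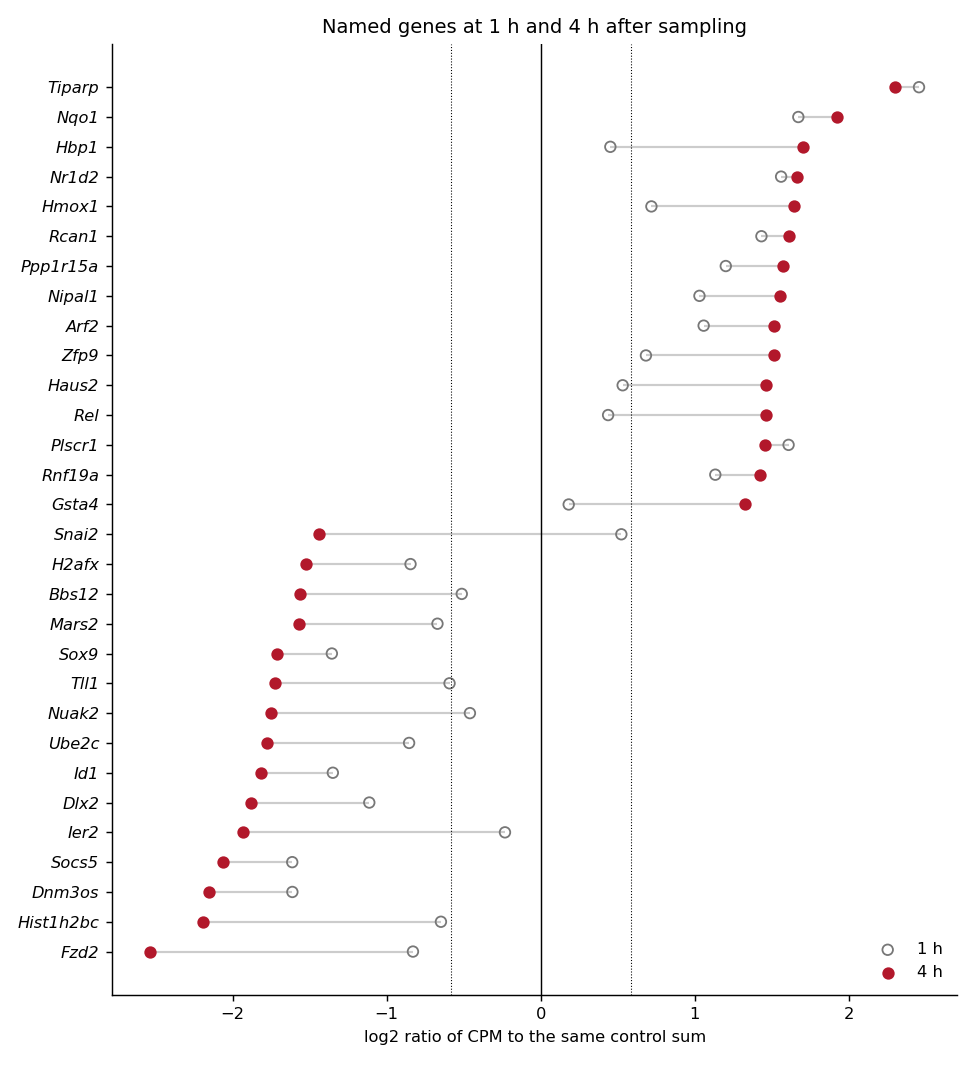
Log2 ratio of CPM to the same control sum at 1 h (open) and 4 h (filled) for genes of the size rule and the marker Gsta4; dotted lines mark 1.5-fold. Tiparp and Nqo1 lie at 1.67 or above at both times, whereas Hbp1, Gsta4 and Ier2 pass the line at 4 h only (1.70, 1.33 and -1.93 against 0.45, 0.18 and -0.23).

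Of 13 targets of TGF-beta and BMP signalling past the filter, 7 were at least 1.5-fold lower at 4 h, among them Id1 and Id3. The share over all genes was 11.4%. Id1, an inhibitor of bHLH factors and a direct BMP target, was at 336.9 CPM in controls (329.7 to 344.3), 132.2 CPM at 1 h and 95.6 CPM at 4 h (90.8 to 100.5), which is 3.53-fold lower. The log2 ratio was -2.15 in the low and -1.61 in the high class. Cells at 4 h ranged from 0 to 1202 CPM with a median of 66.02 CPM, against 0 to 1228 CPM and a median of 305.9 CPM in controls. Although the ranges coincided, 34 of 43 cells at 4 h lay below the lower control quartile. Id3 was at 521.2, 380.9 and 210.7 CPM in control, 1 h and 4 h cells, with 36 of 43 cells under the lower quartile and class ratios of -1.04 and -1.43 on the log2 scale. Snai1 and Snai2 encode repressors of epithelial genes. Snai1 was low at both times (120.98, 58.5 and 48.1 CPM), while Snai2 was at 52.7 CPM in controls, 75.8 CPM at 1 h and 19.5 CPM at 4 h. The list held 14 members, and none past the filter was at least 1.5-fold higher at 4 h, and Id2, Smad7, Skil and Tgif1, named after their values were seen, lay between 0.08 and 0.56 on the log2 scale. At 1 h, 4 were lower and 1 was higher. The median log2 ratio was -0.78 at 4 h and 0.03 at 1 h, and -0.76 and -0.72 within the low and high class at 4 h. Both Sox9 (147.1 to 44.8 CPM), a chondrogenic and progenitor factor, and Dlx2 (57.9 to 15.7 CPM), a homeobox factor, were among the 15 lowest.

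Socs5, a suppressor of cytokine and growth factor signalling, was lower at both times. It stood at 166.4 CPM in controls (161.3 to 171.6), 54.4 CPM at 1 h and 39.8 CPM at 4 h (36.8 to 43.02), which is 3.06-fold lower at 1 h and 4.18-fold lower at 4 h. Of 43 cells at 4 h, 36 lay below the lower control quartile and 1 above the upper one. The median cell was at 17.7 CPM against 146.4 CPM in controls, with highest cells of 817.3 and 1045 CPM. Both classes gave nearly the same log2 ratio, -2.07 and -2.04. After thinning it was seen in 46.5% of cells at 4 h (31.2 to 62.3%) and 92.6% of control cells (83.7 to 97.6%). The 3 other unsampled sets of IBA cells stood at 140.3 to 171.3 CPM.

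Of 14 immediate early genes past the filter, 7 were at least 1.5-fold lower and 2 at least 1.5-fold higher at 4 h, against 1 and 1 at 1 h. Over all genes, 11.4% were lower and 6.3% higher at 4 h. Ier2 was at 180.97 CPM in controls (175.7 to 186.4), 154.1 CPM at 1 h and 47.3 CPM at 4 h (44.02 to 50.8), a 3.82-fold lower level at 4 h, with log2 ratios of -1.44 and -2.16 in the low and high class. Its median cell was at 146.5 CPM in controls and 18.1 CPM at 4 h, and 30 of 43 cells lay below the lower control quartile. Egr1, a zinc-finger factor induced by growth signals, was at 153.02, 192.2 and 58.1 CPM in the same order, with class ratios of -1.04 and -1.55 at 4 h. The list held 23 members, and all 7 lower members were lower in both classes. The members at least 1.5-fold higher at 4 h were Atf3, a stress-induced factor, and Klf4. Atf3 was at 4.02, 33.7 and 20.4 CPM in control, 1 h and 4 h cells, and Klf4 at 8.16, 12.2 and 25.1 CPM. Klf10 was also above control at 4 h, at 0.52 on the log2 scale. Atf3 had a count in 10 of 70 control cells, 26 of 49 cells at 1 h and 12 of 43 cells at 4 h. The median log2 ratio of the list was -0.46 at 4 h and 0.01 at 1 h.

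Of the SRF and YAP targets, Ccn1, Ankrd1 and Ccn2 were past 1.5-fold lower at 4 h and not at 1 h. Ccn1, a matricellular YAP and SRF target, was at 2079 CPM in controls (2061 to 2097), 1893 CPM at 1 h and 797.9 CPM at 4 h (784.05 to 811.9), with log2 ratios of -1.81 and -1.23 in the low and high class. Cells ranged from 0 to 3747 CPM at 4 h with a median of 510.6 CPM, and from 0 to 6496 CPM with a median of 1558 CPM in controls. Of 43 cells, 29 lay below the lower control quartile. Ankrd1 was at 832.8, 761.2 and 403.8 CPM, with class ratios of -1.89 and -0.75 on the log2 scale. Ccn2 was higher at 1 h and lower at 4 h than in controls, at 841.5, 1598 and 543.4 CPM. Of 20 SRF and YAP targets and actin genes, 18 passed the filter and these 3 were at least 1.5-fold lower at 4 h, with none higher, beside 11.4% of all genes, so the count of the list is near the background. At 1 h, 3 members were higher and none lower. The remaining lower ratios were small, with Vcl, a focal adhesion protein, at 109.8 and 74.1 CPM and a list median of -0.25 at 4 h against 0.14 at 1 h. In the other unsampled sets Ccn1 reached down to 807.6 CPM, close to its level at 4 h.

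Socs5, Id1, Id3, Ccn1 and Ier2 were counted together in each cell. At 4 h 17 of 43 cells (39.5%) had all 5 below the lower control quartile and 35 (81.4%) at least 3. At 1 h, 1 of 49 cells had all 5 and 23 at least 3. For control cells, which define the quartiles, the numbers were 1 and 11 of 70. Across the 43 cells at 4 h Spearman's rho between Id1 and Id3 was 0.07. These 5 genes were picked after their values were seen.

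The 15 genes with the lowest 4 h ratios were Fzd2, Hist1h2bc, Dnm3os, Socs5, Ier2, Dlx2, Id1, Ube2c, Nuak2, Tll1, Sox9, Mars2, Bbs12, H2afx and Snai2. All were past 1.5-fold in both library classes, beside 5.13% of all genes at least 1.5-fold lower in both. At 1 h, 11 were past it, beside 39.6% of all genes at least 1.5-fold lower at 4 h. As for the highest genes, they were picked by their ratio in these cells, so the counts carry no independent weight. Fzd2, a Wnt receptor, was at 52.5, 29.5 and 9.05 CPM in control, 1 h and 4 h cells, with no cell at 4 h above the upper control quartile. Dnm3os, the host RNA of a microRNA cluster, was at 68.7, 22.5 and 15.5 CPM. Bbs12, a chaperonin-like ciliary protein, and Tll1, a BMP-1-like protease, differed most between classes, at -4.97 and -0.71 for Bbs12 and -4.41 and -1.17 for Tll1.

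**Figure D4:**
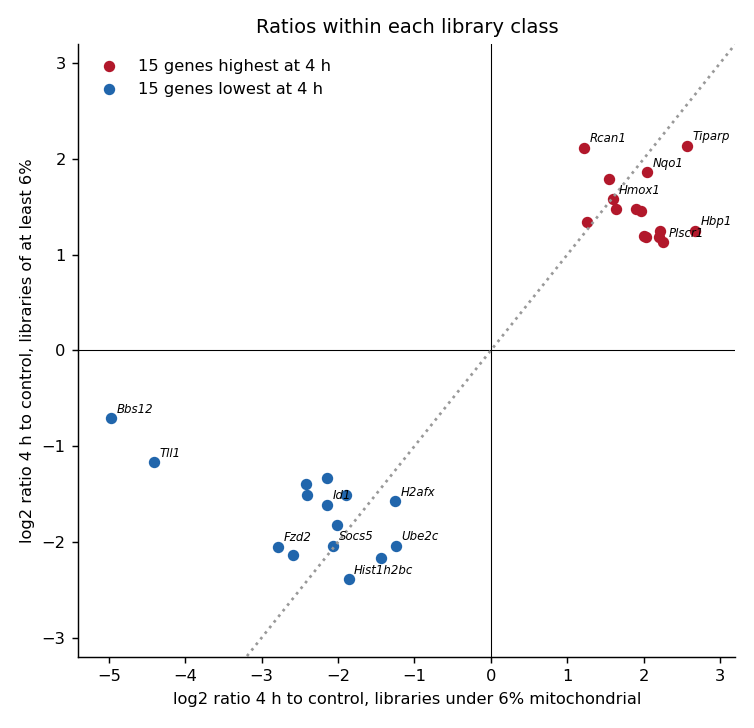
Log2 ratio of CPM, 4 h to control, within libraries under 6% mitochondrial counts (x axis) and of at least 6% (y axis), for the 15 highest (red) and 15 lowest (blue) genes; the dotted line is equality. All 30 have the same sign in both classes, with Socs5 on the line and Bbs12 farthest from it. The genes were picked by their ratio in the same cells, so the shared sign carries no independent weight.

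Cell cycle genes differed by phase. Over all genes, 11.4% were at least 1.5-fold lower at 4 h and 11.6% at 1 h. All 26 G2 and mitosis genes passed the filter, with 9 at least 1.5-fold lower at 4 h and 8 at 1 h. None was higher at either time. Their median log2 ratio was -0.49 at 4 h and -0.33 at 1 h. Ube2c, the ubiquitin-conjugating enzyme of the anaphase-promoting complex, was at 564.2, 312.04 and 164.7 CPM in control, 1 h and 4 h cells. No cell at 4 h exceeded its upper control quartile and 28 of 43 lay below the lower one. Cenpa, the centromeric histone, was at 414.4, 217.9 and 188.2 CPM. Cyclin A2 (Ccna2) was at 287.3, 234.6 and 156.4 CPM, and Cdc20, an activator of the same complex, at 167.1, 111.9 and 95.2 CPM. Median ratios differed between classes (-0.27 low, -0.54 high), and 6 members were past 1.5-fold lower in both. The 27 S phase genes past the filter had medians of 0.24 at 4 h and 0.20 at 1 h. Above control at 4 h were 3262 of all 7188 genes and 18 of the 27 S phase genes. At 1 h, 3 S phase genes were at least 1.5-fold higher and 2 lower. At 4 h they held 1 gene at least 1.5-fold higher, Pcna, the replication clamp (382.2 and 576.3 CPM), and 1 lower gene, H2afx, a histone variant of the DNA damage response (251.1 and 87.3 CPM). Cyclin D1 (Ccnd1) was at 203.96, 92.2 and 109.6 CPM, and Cdkn1a, which encodes p21, at 321.2, 419.4 and 537.5 CPM, its median cell at 104.7 CPM in controls and 424.8 CPM at 4 h. Of 10 D cyclins and CDK inhibitors past the filter, 1 was at least 1.5-fold higher and 3 lower at 4 h, beside 6.3% and 11.4% of all genes.

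Other stress programmes are given by their counts, beside 6.3% of all genes at least 1.5-fold higher and 11.4% at least 1.5-fold lower at 4 h. None of 11 heat shock genes past the filter was past 1.5-fold, and their median was 0.01. In the unfolded protein and integrated stress response, 4 of 18 genes were at least 1.5-fold higher and 1 lower at 4 h. At 1 h, 5 were higher and 1 lower, and the list median was 0.44 at 1 h and 0.25 at 4 h. Above control at 4 h were 15 of the 18, and 3262 of all 7188 genes. Ppp1r15a (GADD34), a regulatory subunit of an eIF2alpha phosphatase, was at 40.1, 92.2 and 119.1 CPM in control, 1 h and 4 h cells. Ddit3 (CHOP) was at 41.96, 72.97 and 71.04 CPM in the same order. Chac1, a glutathione-degrading enzyme and ATF4 target, was at 41.4, 25.97 and 6.16 CPM, with a count in 31 of 70 control cells and 9 of 43 cells at 4 h. Among p53 targets 4 of 13 were at least 1.5-fold higher and none lower at 4 h, and 5 were higher and 1 lower at 1 h. Eda2r, a TNF receptor family member, was at 14.2, 47.2 and 45.6 CPM and Trp53inp1 at 16.97, 59.7 and 46.8 CPM. Gdf15, a stress cytokine, was at 47.9, 112.2 and 89.2 CPM.

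Of 14 NF-kB and inflammatory genes past the filter, 6 were at least 1.5-fold higher at 1 h and 5 at 4 h, with medians of 0.48 and 0.21. For this list and the next, the shares over all genes were 5.91% higher at 1 h and 6.3% at 4 h. The shares lower were 11.6% and 11.4%. Csf1 was at least 1.5-fold lower at both times (-0.60 and -0.59 on the log2 scale). Within both library classes, 3 inflammatory genes were at least 1.5-fold higher at 4 h. The 4 h median of this list was 0.04 in the low and 0.26 in the high class. The chemokine Cxcl5 was at 36.1, 114.8 and 55.1 CPM, and Cxcl1 at 110.6, 270.3 and 183.5 CPM, the latter with log2 ratios at 4 h of -0.062 in the low and 0.71 in the high class. The adhesion molecule Vcam1 was at 25.4, 62.2 and 51.99 CPM, and Birc3, an inhibitor of apoptosis, at 10.6, 14.7 and 31.2 CPM. Of 20 matrix genes 5 were at least 1.5-fold higher at 1 h and 2 at 4 h. The latter were Col6a1 (40.9 to 81.98 CPM) and Col6a2 (33.2 to 89.1 CPM), chains of collagen VI. Both were already past 1.5-fold at 1 h, at 0.72 and 0.83 on the log2 scale. The metalloproteinase inhibitor Timp1 was at 1205, 2459 and 1703 CPM.

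Clock genes included both REV-ERB receptors. Nr1d1 was at 46.2, 79.8 and 93.5 CPM in control, 1 h and 4 h cells, and Bhlhe40, a repressor of CLOCK and BMAL1, at 31.8, 73.6 and 69.2 CPM. Of 10 clock and glucocorticoid genes past the filter, 4 were at least 1.5-fold higher and 2 lower at 4 h. At 1 h, 5 were higher and none lower. Over all genes the shares were 6.3% and 11.4% at 4 h, and 5.91% and 11.6% at 1 h. Within both library classes, 2 members were at least 1.5-fold higher and 1 lower at 4 h. The list's 4 h median was 0.61 in the low and -0.01 in the high class. Arntl, the BMAL1 gene, was among the lower members, at -0.62 on the log2 scale at 4 h. Sgk1, a kinase induced by glucocorticoids and serum that was chosen after its values were seen, was at 563.2, 903.3 and 349.6 CPM.

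Of 20 membrane repair genes 1 was past 1.5-fold, the sphingomyelinase Smpd1 (20.4 and 9.74 CPM, class ratios -0.29 and -1.43). Cav1, the caveolar coat protein, was at 76.8 and 111.7 CPM with log2 ratios of -0.61 and 0.81 in the 2 classes. Of 18 nucleolar genes 2 were lower, Rrs1 (156.96 and 64.2 CPM) and Nop2 (216.6 and 123.8 CPM), both ribosome biogenesis factors. In cholesterol synthesis and uptake 2 of 17 were higher, Hmgcs1 (53.1 and 101.3 CPM) and Insig1 (28.4 and 47.97 CPM). Hypoxia and glycolysis genes had 1 of 12 past 1.5-fold, the growth factor Vegfa (59.9 and 35.4 CPM). Over all genes, 6.3% were at least 1.5-fold higher and 11.4% at least 1.5-fold lower. The counts of these lists are therefore not read as results about their members. The list named nuclear-retained RNAs had 5 members past the filter, with 4 below control. Its name does not hold for Gas5 and Snhg1, host genes of small nucleolar RNAs, at -0.10 and 0.38 on the log2 scale. The 2 members at least 1.5-fold lower were Kcnq1ot1 (116.6 and 63.4 CPM) and Neat1 (345.5 and 214.8 CPM). Both were already past 1.5-fold at 1 h (-1.37 and -0.93 on the log2 scale), and the list median was -0.57 at 4 h and -0.42 at 1 h. Within the low and high class the 4 h median was -0.23 and -0.57. The 7 mitochondrially encoded transcripts had a median of 0.22 that was 0.11 and 0.10 within the classes.

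**Figure D5:**
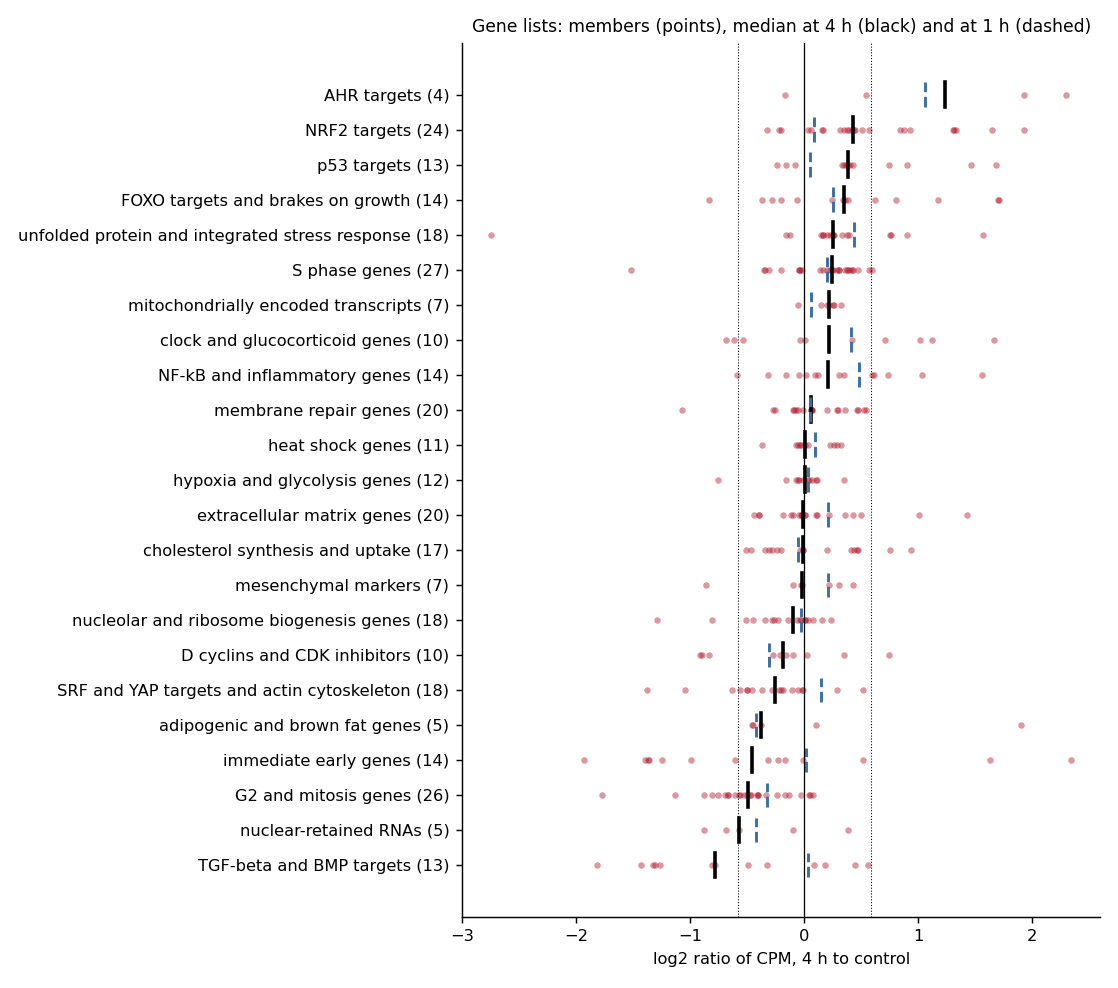
Log2 ratio of CPM, 4 h to control, for the members past the filter of each list (points; number in brackets), with the list median at 4 h (black bar) and at 1 h (dashed). The AHR and NRF2 lists have the highest medians at 4 h (1.23 and 0.43) and TGF-beta and BMP targets the lowest (-0.78). Of the 4 AHR members shown, 2 are the given markers Tiparp and Nqo1, and the NRF2 list holds the markers Nqo1 and Gsta4. Their high rank thus carries no independent weight.

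Identity markers were checked in the same sums. Of 10 mesenchymal markers 7 passed the filter, among them Sparc, a matrix glycoprotein (754.3 CPM in controls, 873.6 CPM at 4 h), and collagen I alpha 1 (Col1a1, 532.4 and 714.9 CPM). Thy1, Dcn and Ly6a did not pass it, with 0.369, 0.492 and 2.25 CPM in controls. Pdgfrb was 1.82-fold lower at 4 h, but its log2 ratio was 0.14 in the low and -1.62 in the high class. None of 10 macrophage markers passed the filter, with summed levels of 23.4 CPM in controls and 27.3 CPM at 4 h and 2 members at 0. Of 15 measured adipogenic and brown fat genes 5 passed, Pparg, the master regulator of fat cells, at 59.9 and 43.7 CPM and Ebf2, a brown fat determinant, at 30.4 and 23.3 CPM. Fabp4, a fatty acid binding protein of adipocytes, was at 6.02 and 22.5 CPM, with a count in 26 of 70 control cells and 11 of 43 cells at 4 h. Macrophage markers were near 0 in both groups, and the mesenchymal sum was 2614 CPM in controls and 2879 CPM at 4 h. In the 3 other sets of unsampled IBA cells the mesenchymal sum was higher, at 5068 to 14150 CPM.

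Unsampled IBA cells of 3 other batches (93, 15 and 45 cells), dissociated with trypsin and sorted instead of picked, give a measure of spread between experiments. The 4 h sum lay above all 4 unsampled sums for 17.8% and below all 4 for 22.7% of the 7188 genes, so such a position is common. It held for 14 of the 15 highest and 11 of the 15 lowest genes. Those genes were picked by their ratio to the control cells, and the control sum is among the 4 unsampled sums. Part of the position was thus fixed by the choice of genes, so these counts carry no independent weight. Tiparp was at 49.6 to 83.8 CPM in the 4 unsampled sums against 244.1 CPM at 4 h, Nqo1 at 53.2 to 151.6 CPM against 576.2 CPM, and Gsta4 at 69.7 to 385.8 CPM against 586.4 CPM. Hbp1 was at 17.5 to 40.97 CPM against 66.1 CPM. Id1 was at 151.9 to 360.4 CPM against 95.6 CPM, and Ier2 at 180.97 to 433.7 CPM against 47.3 CPM. Plscr1 reached 77.8 CPM in an unsampled set, above its 70.98 CPM at 4 h.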

How the data were processed

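IBA whole-cell libraries were analysed from the count table the authors deposited, which holds raw read counts per gene. The authors used a workflow similar to Smart-seq2 with Tn5 tagmentation, merged sequencing lanes, and per the labels' processing notes used bcl2fastq 2.19.1, STAR 2.6.1c, HTSeq and mm10. Of its columns 315 were used here and 697 of other samples were not. Symbols and positions came from GENCODE vM21 (GRCm38), which matched 30340 of 30452 features. Start regions came from RefSeq (GRCm38.p6). Counts were summed per group after 20 negative-control genes listed with the study and 91 ribosomal protein genes were left out. Single cells were picked by serial dilution, and no doublet caller was run, and every deposited library was kept. Ratios of CPM were taken without a pseudocount, a sum of fewer than 3 counts being raised to 3. With 1 sample per group, no test was run. Poisson and Clopper-Pearson intervals (95%) cover counting error only, and reads carry no molecular identifiers. Shares were also taken after thinning to 50000 counts, which left out 2 control cells. The genes named were the 15 highest and 15 lowest ratios with at least 50 CPM and at least 2 counts in at least 25% of cells of a group, past 1.5-fold also with cells weighted equally and without the highest cell, pseudogenes and unnamed genes aside, plus the markers and up to 4 members of each list; a gene that met this rule is not reported here. Members and lists were chosen with earlier results of these data known. The split at 6% mitochondrial counts was added after seeing the data. Scaling factors came from edgeR 4.0.16 and DESeq2 1.42.0, and the scripts (Python 3.11.15, scipy 1.17.1) were tested on simulated data.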

Additional observations from a re-analysis of the deposited data

Results flagged for a closer look

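Ccn2, a matricellular target of YAP and TGF-beta signalling, stood past 1.5-fold on opposite sides of the control level at the 2 times, with a log2 ratio of 0.93 at 1 h and -0.63 at 4 h. The difference was not tested, since each time is 1 sample, and both ratios share the control cells. Its median cell was at 518.4 CPM in controls, 1006.5 CPM at 1 h and 212.4 CPM at 4 h. Within the low and high library class the 4 h ratio was -0.92 and -0.63. Sgk1, a kinase induced by serum and glucocorticoids, was likewise above control at 1 h and below it at 4 h, with log2 ratios of 0.68 and -0.69, and -0.70 and -0.84 within the classes at 4 h. That difference was not tested either.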

How the results depend on the processing

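Each group is 1 sample, so no spread between cultures is known. No paired analysis was possible because cell numbers in the labels are unique and shared by no group. Of the genes compared, 6.3% were higher and 11.4% lower. A 2-fold limit gave 1.93% and 3.58%, no filter on low values 14.97% and 20.3% (of 21698 genes), a minimum of 50 CPM 4.77% and 7.16% (of 4526 genes), and low-mitochondrial libraries alone 15.3% and 19.7%, where only 17 and 38 cells enter the sums. At 2-fold, 30.9% of higher and 20.2% of lower genes were already past the limit at 1 h, against 37.1% and 39.6% at 1.5-fold. DESeq2 size factors moved the share of higher genes among those past 1.5-fold from 35.5% to 46.2%, and leaving out the highest cell of each group gave 28.7%. The other counts (every cell weighted equally, TMM, all genes kept, thinning, at least 200000 counts, high-mitochondrial libraries, the mean of both classes) stayed within 1.5 times. Of 75 named genes past 1.5-fold, 66 stayed past it in the low class, 68 in the high class and 66 after thinning. Cxcl1 (-0.062) and Pdgfrb (0.14) changed sign in the low class, and the cause was not tested. List medians were run under the other scalings, cell weights, sets of cells, library classes and all genes kept, not under the other gene filters or limits, and none moved by as much as 1.5-fold.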
